A study of Mus musculus with 8 samples.

Results

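The glucocorticoid receptor gene, the enzyme that supplies its ligand inside the hepatocyte, and classical genes that the receptor induces were examined in the liver of mice that carry a nonsense allele of Jag1 and of wild-type mice. Members were taken by gene symbol, from the platform annotation of the bead array: Nr3c1, Hsd11b1, Tsc22d3, Fkbp5, Sgk1, Tat, Tdo2 and Zbtb16. Of these 8 genes, 7 had a probe, giving 11 of the 25697 probes on the array, which in all name 16593 genes. Zbtb16 was not analysed here. The mice were 4 wild-type and 4 Jag1K295*/+ heterozygous males, 21 weeks of age and of strain C3HeB/FeJ, with liver RNA of each on 1 array. Sample titles call the second group "hom", but its genotype label and the design text say heterozygous, which was followed. No treatment, fasting state, time of day or hybridisation batch is given in the sources used here, so none could be tested. In whole liver, fewer cells of a type and less RNA per cell cannot be told apart.

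The glucocorticoid receptor, encoded by Nr3c1, is a nuclear receptor that waits in the cytoplasm in a complex with heat shock proteins and co-chaperones, and moves to the nucleus when corticosterone binds. In hepatocytes 11 beta-hydroxysteroid dehydrogenase type 1, encoded by Hsd11b1, regenerates active corticosterone from its inert keto form. The receptor then binds DNA and raises transcription of genes of amino acid breakdown and glucose production, and of genes that damp the response, such as Fkbp5. Corticosterone is secreted in a daily rhythm, so genes of this kind vary over the day.

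Signals were background-corrected, quantile normalized and taken as log2, and testing was limited to probes detected (p under 0.05) on 4 or more of the 8 arrays. Detection p-values compare a probe with the negative controls of its array. This filter kept 11412 probes, among them 8 of the 11 member probes, for 5 of the 7 genes. The mean signal of an array lay between 422 and 488, and the log2 signals of pairs of arrays correlated at 0.985 to 0.994 over the tested probes. Heterozygous replicate 4 stood apart on the first principal component of the tested probes (24.3, the others between -12.3 and 6.90), and values without it are given in the account of each tested member. On no array was the probe of Jag1 well above background (detection p 0.301 to 0.895), so it checked no label. Of the 6 hepatocyte markers, Ttr, Apoa1, Cps1, Serpina1b and Cyp2e1 were bright, with mean log2 signals from 13.96 to 14.71 in wild type, and the Alb probe was detected on 2 of 8 arrays. Kupffer cell markers (4 of 6 tested) differed by a median of -0.18 log2 units and endothelial markers (5 of 5 tested) by -0.12. Stellate cell markers (4 of 5 tested) were all lower, by a median of -0.12, and the exocrine pancreas markers (2 of 5 tested) had a median of -0.07. Of all these markers 0 were called, and their part in the genotype differences was not tested. None of the 5 lymphocyte markers or the 4 adipocyte markers was tested, and Krt7 alone was tested of 5 cholangiocyte markers.

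The probe of the receptor gene read at the edge of detection. The Nr3c1 probe (ILMN_2740568) had signals of 128, 138, 142 and 139 on the wild-type arrays and of 134, 120, 129 and 129 on the heterozygous arrays. It passed the detection threshold on 2 wild-type arrays and 1 heterozygous array, with detection p-values from 0.0376 to 0.254. In wild type its log2 signal averaged 4.94 ± 0.10 (SD, n = 4), in heterozygous liver 4.81 ± 0.20 (SD, n = 4), the groups overlapped, and no fold is given at this level (exact permutation test, two-sided, p = 0.343). With signals this near to background, a genotype difference in receptor transcript was not detectable.

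Tat encodes the tyrosine aminotransferase of hepatocytes and is a textbook glucocorticoid-induced gene, but its probe (ILMN_1260050) stayed at background on all 8 arrays. This probe had signals of 115, 117, 127 and 121 in wild-type mice against 105, 111, 113 and 107 in heterozygous liver, with detection p-values from 0.281 to 0.999. Each heterozygous signal lay below each wild-type signal, but all lay within the background, so the order says nothing measurable about the transcript. The probe of Alb, which encodes the main plasma protein made by hepatocytes, had signals from 127 to 139 on the same arrays. The fourth Hsd11b1 probe (ILMN_3041149) was likewise detected on 1 of 8 arrays, with signals from 118 to 135, whereas the other Hsd11b1 probes were among the brightest on the array. A probe at background therefore does not by itself show how much of its transcript the liver held, and this holds for Nr3c1 and Tat too.

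**Figure D1:**
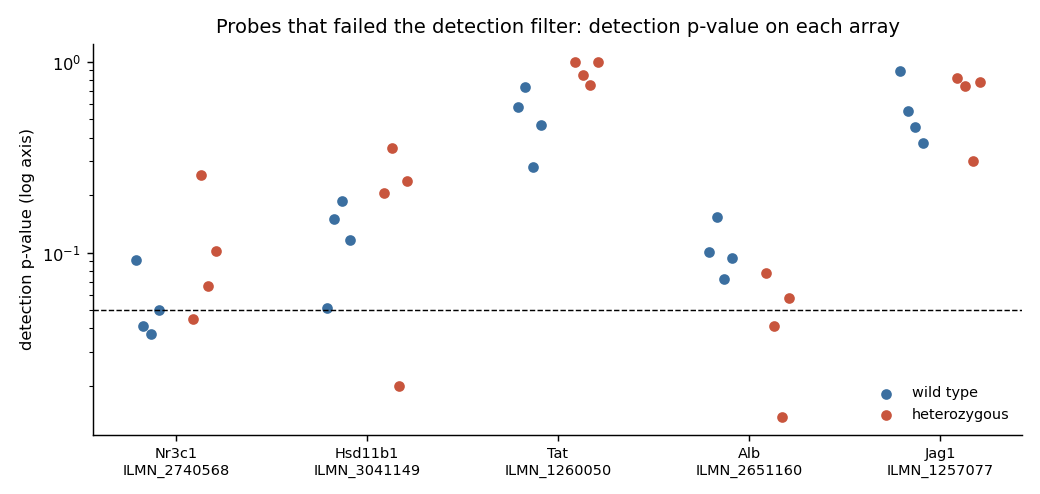
Detection p-value (vertical, log axis) of each probe that failed the detection filter, for the 4 wild-type arrays (blue) and the 4 heterozygous arrays (red), with the threshold of 0.05 as a dashed line. The Tat and Jag1 probes stayed above the line on all 8 arrays, Nr3c1 crossed it on 3 arrays, Alb on 2 and the fourth Hsd11b1 probe on 1.

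Hsd11b1 was read by 3 bright probes, and all of them were slightly lower in heterozygous liver without passing the test. The brightest, ILMN_3115917, had log2 signals of 14.07, 13.94, 14.03 and 13.96 in wild-type mice against 13.87, 13.84, 13.90 and 13.94 in heterozygous mice. The heterozygous arrays lay just below the wild-type arrays, the nearest pair both rounding to 13.94. Its log2 fold change was -0.12 ± 0.07 (SE; limma adjusted p = 0.579), with a 95% interval from -0.27 to 0.04. ILMN_2774160 gave 13.85, 13.82, 13.74 and 13.73 against 13.68, 13.63, 13.70 and 13.68, again with no overlap, and a log2 difference of -0.11 ± 0.07 (SE; limma adjusted p = 0.577). ILMN_1214998 gave 13.96, 13.92, 13.88 and 13.97 against 13.76, 13.72, 13.78 and 13.90, where heterozygous replicate 4 reached into the wild-type range, and a log2 difference of -0.14 ± 0.07 (SE; limma adjusted p = 0.491). Non-overlap in either direction was seen for 6.25% of all tested probes and non-overlap with heterozygous liver lower for 3.1%.

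The 3 probes read 1 transcript, so they are repeated readings of the same RNA and not independent members. They varied together over the arrays, with r from 0.76 to 0.81 between pairs of them over 8 arrays. Before normalization the brightest probe had signals of 17460, 16318, 17523 and 16121 in wild-type mice against 14153, 14111, 15278 and 15190 in heterozygous liver, and non-normalized signals of all 3 probes were separate between the groups. The mean signal over all probes was 438 to 488 on the wild-type arrays and 422 to 453 on the heterozygous arrays, a difference that the normalization removes. Hsd11b1 held ranks 38 to 99 of 25697 by signal, and quantile normalization gives every array the same set of values at the top: Serpina1b, the brightest marker, had 14.71 on all arrays. Ttr, another bright hepatocyte marker, had a log2 fold change of -0.10 and groups that did not overlap either. The part of normalization in the small Hsd11b1 difference was not tested beyond the alternatives. The difference was below 0 in all 51 fits of the 3 probes, the reported fit and 16 alternatives for each, from -0.18 to -0.09, with the lowest limma adjusted p at 0.314. With median scaling the groups of ILMN_3115917 and ILMN_2774160 overlapped, whereas those of ILMN_1214998 did not. Without heterozygous replicate 4 the log2 fold change was -0.13 for ILMN_3115917 and -0.12 for ILMN_2774160. For ILMN_1214998 it was -0.18 (limma adjusted p = 0.547), and the groups of that probe then did not overlap.

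Tsc22d3 encodes GILZ, a leucine zipper protein that mediates anti-inflammatory effects of glucocorticoids. It was read by 2 probes that the annotation assigns to different RefSeq transcripts. The brighter, ILMN_3150811, had log2 signals of 10.29, 9.99, 10.30 and 10.19 in wild-type mice against 10.10, 10.60, 10.49 and 10.56 in heterozygous liver. Heterozygous replicates 2, 3 and 4 lay above every wild-type array, and heterozygous replicate 1 lay within the wild-type range. The log2 fold change was 0.24 ± 0.12 (SE; limma adjusted p = 0.490), with a 95% interval from -0.03 to 0.51. Without heterozygous replicate 1 the groups no longer overlapped and the log2 fold change was 0.35, still short of the threshold (limma adjusted p = 0.242). Without heterozygous replicate 4 it was 0.20.

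The dimmer Tsc22d3 probe, ILMN_2701664, gave 6.64, 6.50, 6.70 and 6.37 in wild-type mice against 6.33, 6.62, 6.43 and 6.56 in heterozygous mice. These groups overlapped throughout, and the log2 fold change was -0.07 ± 0.10 (SE; limma adjusted p = 0.830; 95% interval -0.29 to 0.15). Without heterozygous replicate 4 it was -0.09. Over the 8 arrays the probes of Tsc22d3 correlated at 0.41, well short of the agreement among the Hsd11b1 probes. Whether they differ in their response to genotype was not tested.

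RefSeq lists 3 transcription start windows for Tsc22d3, and 6 for Sgk1. The Tsc22d3 and Sgk1 windows with the most matches to the receptor's DNA element are shown. The glucocorticoid response element was taken here as the exact inverted repeat of the arms AGAACA and TGTTCT. The arms stand in that order with 3 free bases between them, so this form reads the same on both strands. The 250 bases before the start in each of 13 RefSeq windows (GRCm38.p6) of 6 members were searched for the arms, either of which covers both strands, since each is the reverse complement of the other. Nr3c1 was left out of this search, and Zbtb16 had no entry. Capitals mark the arms.
Tsc22d3, outermost window, chrX:140600523-140600772, minus strand: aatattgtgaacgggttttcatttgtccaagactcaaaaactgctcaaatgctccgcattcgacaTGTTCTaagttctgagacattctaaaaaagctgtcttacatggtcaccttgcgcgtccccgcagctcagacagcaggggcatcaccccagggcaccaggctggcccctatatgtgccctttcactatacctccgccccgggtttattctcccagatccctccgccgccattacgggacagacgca
Sgk1, the fifth of 6 windows, chr10:21993640-21993889, plus strand: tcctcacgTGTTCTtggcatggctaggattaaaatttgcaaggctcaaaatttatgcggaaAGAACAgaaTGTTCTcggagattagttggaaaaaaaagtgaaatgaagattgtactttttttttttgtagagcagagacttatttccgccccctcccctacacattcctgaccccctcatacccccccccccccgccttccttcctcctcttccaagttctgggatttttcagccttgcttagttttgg
The Sgk1 window holds 3 arms, beginning 242, 189 and 180 bases before the start, and the last pair forms the whole element. Of the 32851 RefSeq windows of this length, 3 held the whole element (0.00913%), namely those of Sgk1, Acnat2 and Gm35041, and 16.1% held at least 1 arm. The Tsc22d3 window holds 1 arm, 185 bases before the start. At least 1 arm was found in 4 of the 13 member windows, all of Sgk1 or Tsc22d3, and none was found in those of Hsd11b1, Fkbp5, Tat and Tdo2. A match is a run of letters and not a binding site, and the annotation does not pair the probes with start windows. Elements farther from the start, or with other letters in an arm, were not searched.

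Fkbp5, which encodes a co-chaperone that lowers the hormone affinity of the receptor, varied widely from mouse to mouse. Its log2 signals were 6.18, 6.22, 5.79 and 6.17 in wild-type mice against 6.15, 6.71, 6.43 and 5.62 in heterozygous liver. Heterozygous mice held both the highest value, in replicate 2, and the lowest, in replicate 4, and the groups overlapped. The log2 fold change was 0.14 ± 0.20 (SE; limma adjusted p = 0.833), with a 95% interval from -0.32 to 0.59. Without heterozygous replicate 2 the sign turned (-0.03), and without heterozygous replicate 4 the log2 fold change was 0.34, neither past the threshold. The SD within genotypes, 0.36, exceeded that of 97.5% of the tested probes. The probe is dim, with signals from 150 to 196 beside 105 to 127 for the undetected Tat probe.

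Sgk1, which encodes a kinase that acts on ion channels and transporters, was at 9.47, 9.26, 9.02 and 8.86 in wild-type mice against 9.21, 8.98, 9.32 and 9.76 in heterozygous liver on the log2 scale. Heterozygous replicate 4 had the highest value of the 8 arrays and wild-type replicate 4 the lowest, and the groups overlapped. The log2 fold change was 0.16 ± 0.17 (SE; limma adjusted p = 0.757; 95% interval -0.22 to 0.55). Sgk1 is well above background, with signals from 557 to 951, and its SD within genotypes of 0.30 exceeded that of 93.8% of the tested probes. Without heterozygous replicate 4 the log2 fold change was 0.02.

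Tdo2, which encodes the tryptophan dioxygenase that opens the kynurenine pathway, had log2 signals of 7.56, 7.38, 7.50 and 8.06 in wild-type mice against 7.57, 7.59, 7.90 and 7.87 in heterozygous mice. Wild-type replicate 4 was the highest array and the other wild-type arrays were the lowest. The genotype difference of 0.11 ± 0.15 log2 units (SE; limma adjusted p = 0.822; 95% interval -0.22 to 0.43) was within the spread between mice, and without heterozygous replicate 4 it was 0.06. Without wild-type replicate 4 it was 0.25 and the groups no longer overlapped (limma adjusted p = 0.425). Tdo2 exceeded 85.6% of the tested probes in SD within genotypes, at 0.25, whereas the Hsd11b1 probes exceeded 1.27% to 3.65%. A low spread was not particular to Hsd11b1. Among the bright hepatocyte markers, Serpina1b, Cyp2e1, Ttr and Apoa1 each exceeded at most 1.38%, and Cps1 exceeded 31.3%.

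**Figure D2:**
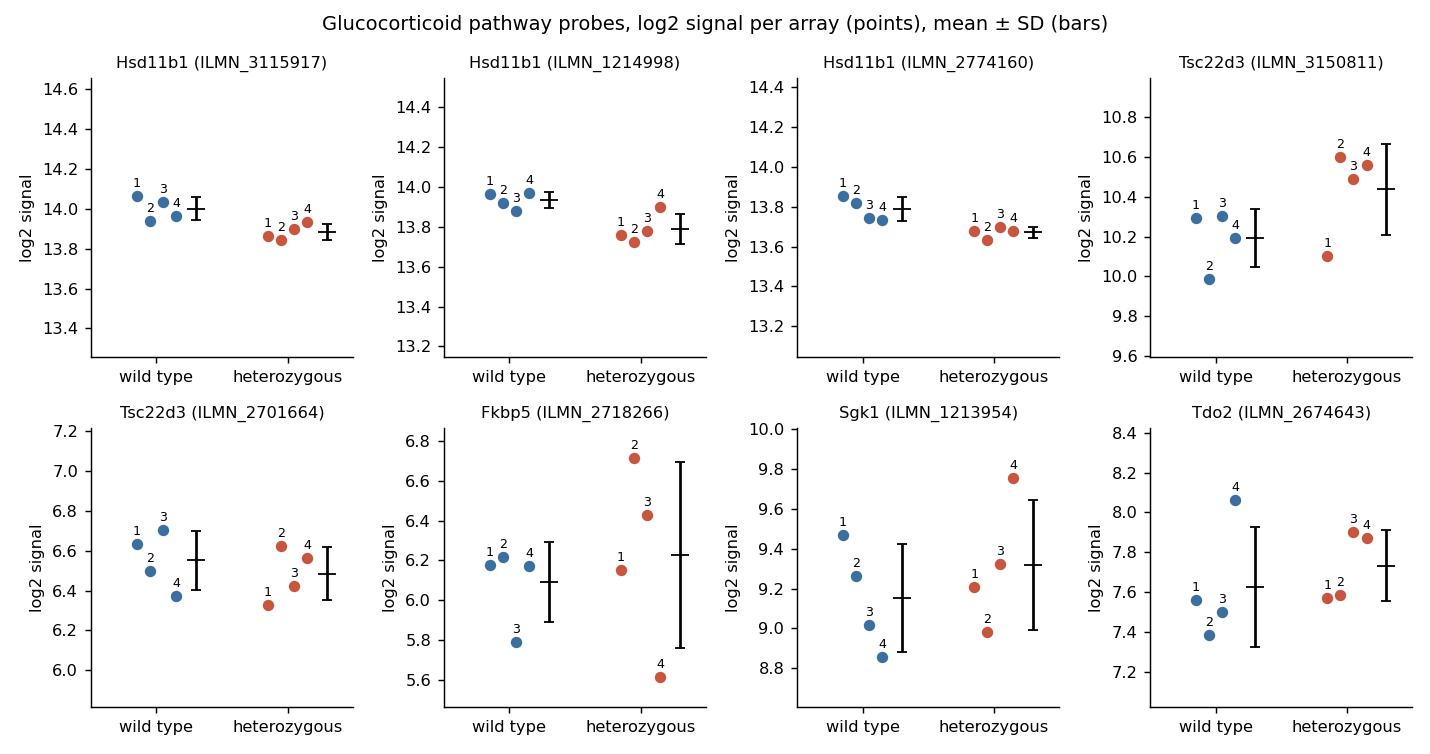
Log2 signal (vertical, the same span in every panel) of the 8 tested member probes on each array, 4 wild type (blue) and 4 heterozygous (red), with replicate numbers, means and SDs as bars. The Hsd11b1 probes show little spread and slightly lower heterozygous values, while Fkbp5 and Sgk1 spread over 1.10 and 0.90 log2 units with overlapping groups.

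In all, 0 of the 8 tested member probes passed limma's adjusted threshold of 0.05, where 1 of 11412 probes did (0.00876%). At an unadjusted p under 0.05 the count was also 0 of 8, against 11.2% of all tested probes, and by the exact permutation test 2 probes, both of Hsd11b1, had the smallest p it can give (0.0286), which full separation of the groups gives and which 6.25% of all tested probes showed. Of the 5 genes by their brightest probe, 4 had a log2 fold change above 0 and Hsd11b1 was below it, where 51.9% of all tested probes were above 0 and their median was 0.01.

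The genes that act around the receptor gave no call either. This list and the others below were chosen with earlier results of these data known. Their counts are therefore set beside the shares of all tested probes as descriptions, and they test no excess. Of 18 chaperones and cofactors, 12 were tested, of which 10 were above 0, with a median log2 fold change of 0.09, and 0 passed the threshold or an unadjusted p under 0.05 in the limma fit. Ncoa1, a coactivator of nuclear receptors, differed by 0.24 ± 0.11 log2 units (SE; limma adjusted p = 0.453). Hspa8, the constitutive Hsp70 chaperone, had a log2 fold change of 0.18 by its brightest probe and at -0.30 by another. Dnajb1, an Hsp40 co-chaperone, was at 0.15 and Ptges3, the p23 co-chaperone, at 0.10. Fkbp4, whose protein competes with that of Fkbp5 for the receptor complex, was at 0.03.

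Ligand handling was covered by 4 tested genes of 9, all above 0 by the brightest probe with a median log2 fold change of 0.20. H6pd, which makes the NADPH that the Hsd11b1 enzyme uses, was at 0.27 ± 0.12 (SE; limma adjusted p = 0.435), opposite in sign to Hsd11b1. Its log2 signals were 11.20, 11.27, 11.13 and 11.52 in wild-type mice against 11.38, 11.78, 11.41 and 11.63 in heterozygous liver, which overlapped. Serpina6, which encodes corticosteroid-binding globulin, was at 0.15, Cyp3a11, a steroid-hydroxylating cytochrome, at 0.24, and Cyp3a13 at 0.09. Other Cyp3a13 probes gave 0.03 (limma adjusted p = 0.925) and -0.32 (limma adjusted p = 0.314), and the last had the smallest unadjusted p of the probes given for this list, opposite in sign to the brightest. By the brightest probes limma called 0 of the 4, and 1, H6pd, was higher at an unadjusted p under 0.05, against 5.26% of all tested probes. That count was 0 under median scaling, with the clock covariate, and without wild-type replicate 2 or 3 or heterozygous replicate 2 or 4. It was 2 without wild-type replicate 1, and 2 in either direction of the 8 genes tested with no detection filter.

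Of 24 other genes that glucocorticoids induce, 21 were tested and 12 lay above 0, with a median log2 fold change of 0.05. The median was -0.02 without heterozygous replicate 2. Under median scaling it was 0.01, where the median of all tested probes was -0.04. Limma called 0 of them, and 4 were higher and 2 lower by unadjusted p under 0.05, against 5.26% and 5.95% of all tested probes. The 4 include Irs2, which met the detection filter by its heterozygous arrays. With detection p under 0.01 required on all 8 arrays, 5 of 20 tested genes had an unadjusted p under 0.05 in either direction. The share of all probes in that fit was 12.2%. The list was chosen with earlier results of these data known, so these counts test no excess. The largest differences went both ways. Dusp1, a phosphatase of MAP kinases, had log2 signals of 9.68, 9.88, 9.79 and 9.69 in wild-type mice against 9.52, 8.69, 8.16 and 8.46 in heterozygous liver, so that replicate 1 was closest to wild type. The groups did not overlap, and the log2 fold change was -1.05 ± 0.23 (SE; limma adjusted p = 0.213). Of this list, 2 genes were lower without overlap and 1 was higher without overlap, against 3.1% and 3.15% of all tested probes. Gadd45a, a stress-induced growth regulator, gave 8.06, 7.88, 8.14 and 7.85 against 7.55, 7.23, 7.57 and 6.39 (limma adjusted p = 0.309), and its other probe had a log2 fold change of -0.80 as well.

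On the higher side, Irs2, an insulin receptor substrate, gave 5.01, 4.90, 4.63 and 5.27 in wild-type mice against 5.53, 6.23, 5.53 and 5.85 in heterozygous liver, with no overlap. It did not pass limma's threshold (adjusted p = 0.204). Wild-type liver was at the edge of detection, with 2 of 4 arrays detected and detection p-values from 0.0201 to 0.175, and the 4 detected heterozygous arrays alone met the filter, so the size of the difference is uncertain. Before normalization the groups overlapped, with wild-type signals up to 148 and heterozygous signals from 145. G6pc, which encodes the enzyme that releases free glucose from the liver, gave 9.68, 10.58, 9.83 and 10.45 against 10.46, 11.25, 10.91 and 11.73, which overlapped, and a log2 fold change of 0.96 ± 0.27 with the limma adjusted p at 0.309. As background, Irs2 and G6pc are also governed by insulin, and Dusp1 and Gadd45a by stress signals. Klf9 and Per1, targets that respond directly to glucocorticoids in many tissues, had log2 fold changes of -0.10 and 0.08. Without heterozygous replicate 1 limma called Dusp1 (log2 fold change -1.32, adjusted p = 0.0121), and no other gene of the pathway lists was called under any alternative.

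Tyrosine and tryptophan breakdown, the pathways that Tat and Tdo2 open, was represented by 9 tested genes of 12, of which 7 were above 0, with a median log2 fold change of 0.07. Limma called 0 of the 9, and 3 were higher at an unadjusted p under 0.05, against 5.26% of all tested probes. That count was 0 without wild-type replicate 3 and 0 under median scaling. Under median scaling the median of the list was 0.02 and that of all tested probes -0.04. Kynu, which encodes kynureninase, gave log2 signals of 11.20, 11.24, 11.20 and 11.17 in wild-type mice against 11.43, 11.34, 11.43 and 11.34 in heterozygous liver. These groups did not overlap, as for 3.15% of all tested probes in that direction, and the log2 fold change was 0.18 ± 0.07 (SE; limma adjusted p = 0.393). Kmo, which encodes kynurenine monooxygenase, was at 0.27 and Aadat, a kynurenine aminotransferase, at 0.28. Hpd, the enzyme after Tat in tyrosine breakdown, was at 0.13.

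**Figure D3:**
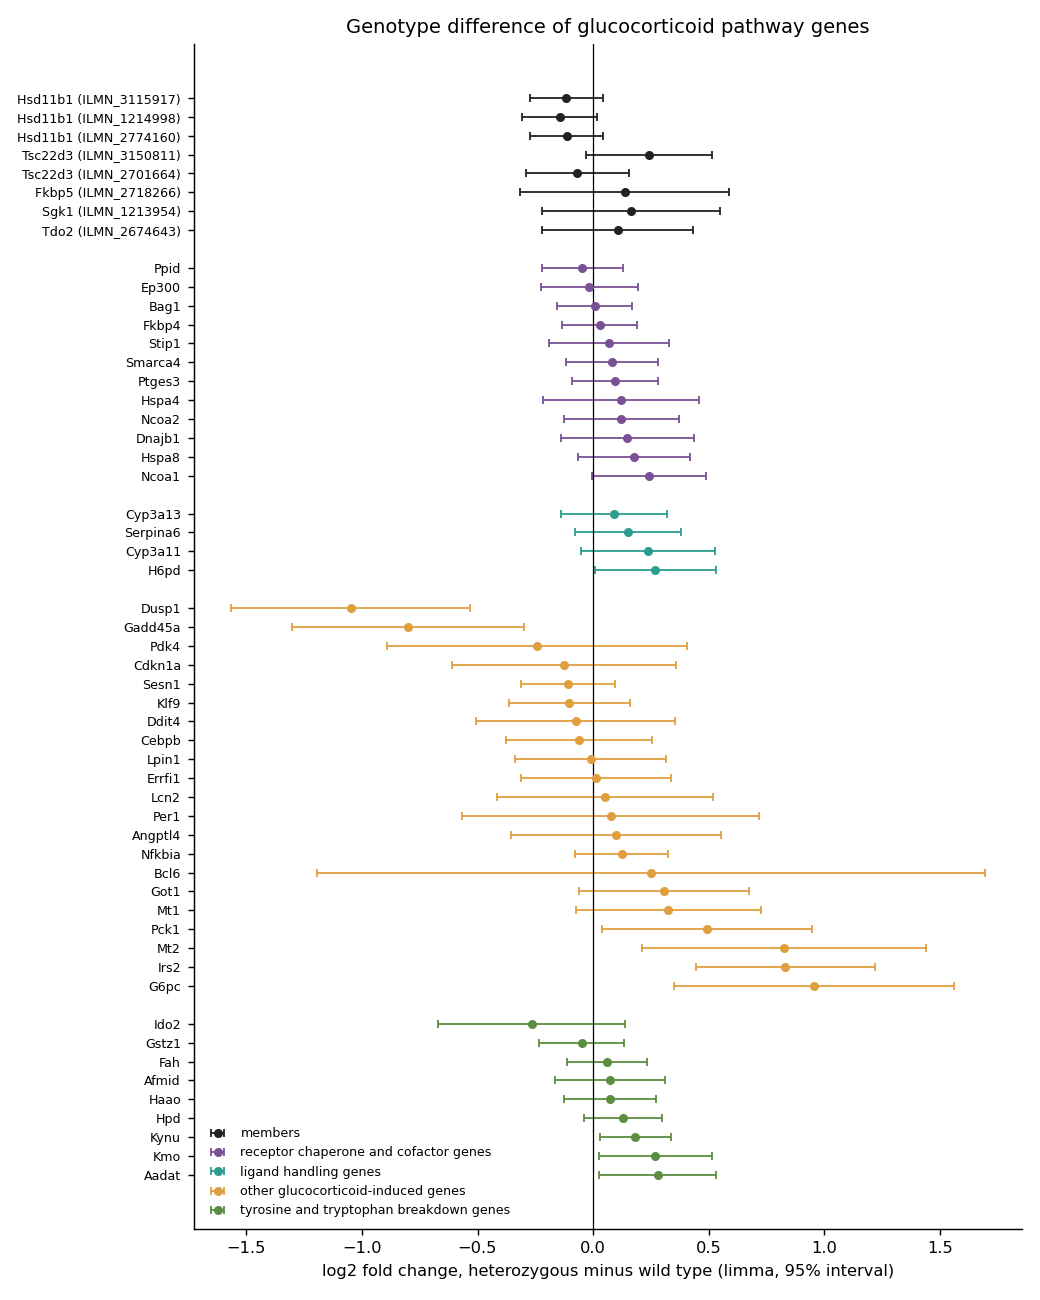
Log2 fold change, heterozygous minus wild type (horizontal), with its 95% interval from limma, 1 row each. Rows are the 8 tested member probes and the tested genes of 4 lists, which were chosen with earlier results of these data known. Most intervals cross 0, and the widest differences are Dusp1 at -1.05 and Gadd45a at -0.80 on the left and Mt2 at 0.83, Irs2 (near background in wild type) at 0.83 and G6pc at 0.96 on the right, none past the adjusted threshold.

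No pair of members correlated past the threshold from mouse to mouse. The 5 genes with a tested probe form 10 pairs, and Pearson's r over the 8 arrays was above 0 for 5 pairs and below 0 for 5, from -0.51 to 0.38. By the exact permutation test 0 of 10 pairs passed at an adjusted or an unadjusted p of 0.05, and the lowest adjusted p was 0.949 for r and 0.881 for Spearman's rho. Each member's median absolute r with the 7958 other genes compared ranged from 0.29 to 0.33, and most pairs of members had an r nearer to 0 than that. Tsc22d3 and Fkbp5, both used as readouts of receptor activity, had r = 0.11 (rho = 0.12; exact permutation p = 0.789 and 0.793). Fkbp5 and Sgk1 had r = -0.46 (rho = -0.21; exact permutation p = 0.251 and 0.619), which turned to 0.46 without heterozygous replicates 2 and 4, the arrays farthest from the Fkbp5 median. Fkbp5 and Hsd11b1 had r = -0.51 (rho = -0.36; exact permutation p = 0.198 and 0.389), and -0.50 without the 2 arrays farthest from the Hsd11b1 median.

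Taking each array's deviation from its genotype mean moved several pairs. The r of Hsd11b1 with Sgk1 went from 0.14 to 0.66, and that of Hsd11b1 with Tsc22d3 from -0.23 to 0.49. Permuted within genotypes, 0 of 10 pairs passed, with a lowest adjusted exact p of 0.551.

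**Figure D4:**
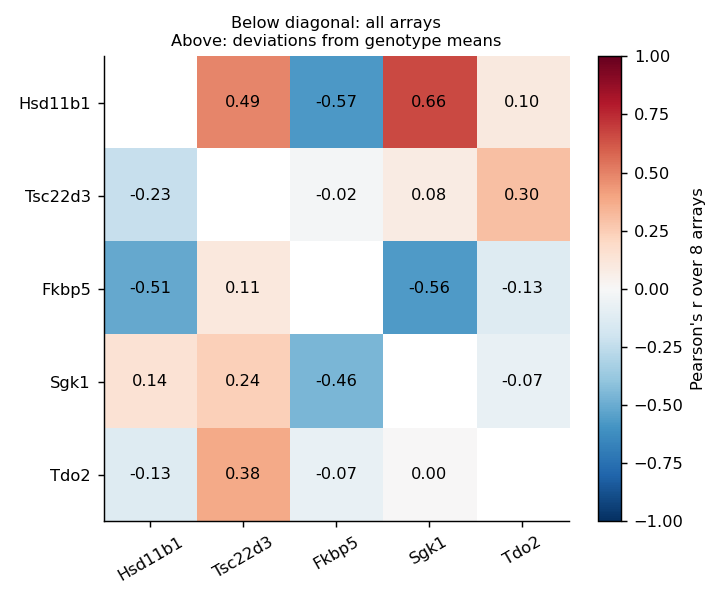
Pearson's r over the 8 arrays between the 5 member genes with a tested probe, each by its brightest probe, on a colour scale from -1 to 1. Squares below the diagonal use the log2 signals, from -0.51 to 0.38, and squares above it use deviations from the genotype means, from -0.57 to 0.66.

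For each member the genes of most similar pattern were looked up among 7958 genes, and a high r is fixed by choosing the top of so many. The closest by Pearson's r over the 8 arrays were Snrk, a kinase gene (0.97), and Ddost, a subunit of oligosaccharyltransferase (0.95), for Tsc22d3. For Fkbp5 they were Ap1ar (0.97) and Alkbh4 (0.95), for Sgk1 Wdr37 (0.96) and Cyp2b9, a cytochrome gene (0.94), and for Tdo2 Sin3a, a corepressor scaffold (0.95), and Ctage5 (0.95). Hsd11b1 had Ldb2 (0.94) and Primpol (0.94). Between 11 and 19 genes reached an r above 0.90 with each member, and these likenesses are descriptions without a test.

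Clock gene levels differed between the mice, and Sgk1 was highest where the Dbp level stood least above that of Arntl. Dbp and Arntl are clock genes that peak at opposite times of day, and the Dbp minus Arntl difference was 3.02, 3.35, 4.74 and 5.69 log2 units in wild-type mice against 4.71, 3.91, 5.21 and 0.92 in heterozygous mice. Heterozygous replicate 4, the array that stood apart on the first component, was lowest. Sgk1 had r = -0.82 with the difference (rho = -0.69; exact permutation p = 0.0125 and 0.0694), and the adjusted p over the 5 member genes was 0.0626 for r and 0.347 for rho. With deviations from the genotype means r was -0.82 (exact permutation p = 0.0417, adjusted 0.208). Without heterozygous replicate 4 r was -0.58 (adjusted exact p = 0.411), and without the arrays farthest from the Sgk1 median, heterozygous and wild-type replicate 4, it was -0.34. Without heterozygous replicate 3 (-0.92, adjusted exact permutation p = 0.0169) or 2 (-0.88, 0.0377) the relation passed the threshold, so its call turned on single mice. Fkbp5 went the other way, with r = 0.45 (rho = 0.17; exact permutation p = 0.257 and 0.703), and 0.02 without heterozygous replicates 2 and 4. Tsc22d3, Hsd11b1 and Tdo2 had r of -0.30, -0.12 and 0.17, all with adjusted exact p = 0.779. The relation to the clock was examined after the values were seen.

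**Figure D5:**
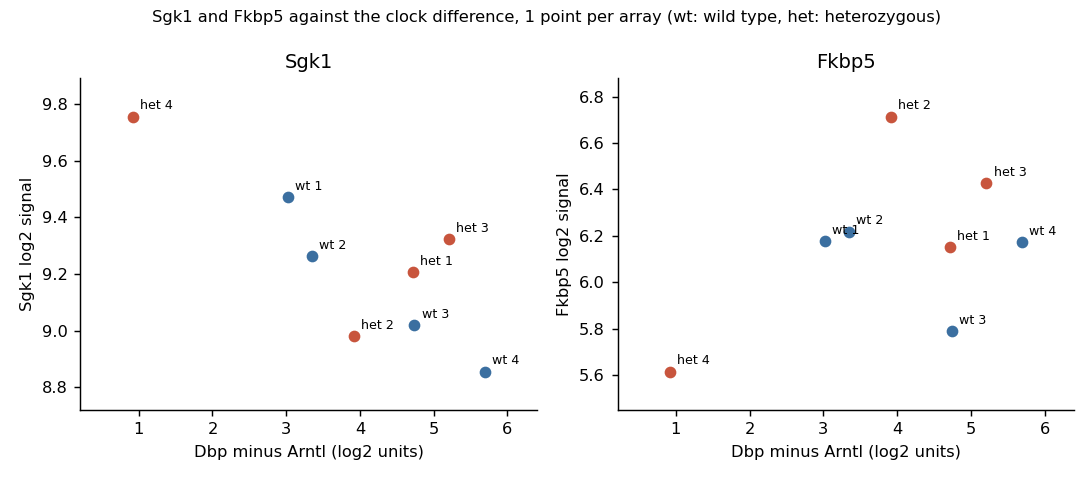
Log2 signal of Sgk1 (left) and Fkbp5 (right) against each array's Dbp minus Arntl difference in log2 units, 1 labelled point per array, blue for wild type and red for heterozygous. Heterozygous replicate 4, at 0.92, has the highest Sgk1 and the lowest Fkbp5 value.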

How the data were processed

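Liver RNA of 4 wild-type and 4 heterozygous mice was read on 1 bead array each. Per the file headers, the authors deposited non-normalized signal intensity for 25697 probes. The same deposited file holds a detection p-value for every probe and array. GenomeStudio 2011.1 is named per the submitters' processing notes. A further deposited table of processed intensity, whose processing is not given in the sources used here, served as an alternative. Background was corrected with nec (offset 16) in limma 3.58.1 under R 4.3.3, arrays were quantile normalized, and log2 values were taken from the deposited intensities. The offset shrinks differences of dim probes.

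The limma comparison of genotypes (lmFit, eBayes) was two-sided, and p-values were adjusted after Benjamini and Hochberg over 11412 probes. Single values were compared by exact permutation over the 70 assignments of arrays. Correlations over arrays used exact permutation of pairings, adjusted over 10 pairs or 5 genes. A gene with several tested probes was represented by the brightest. Steps were tested on simulated data. The members and lists were chosen with earlier results of these data known. Named genes were all members, Jag1, the cell type markers, Dbp and Arntl, up to 4 genes per list with the smallest unadjusted p, and the 2 genes closest in pattern to each member; Fkbp4, Klf9, Per1, Mt2 and genes holding the response element were named after their values were seen. Alternatives were no background correction, offset 50, median scaling, no filter, detection p under 0.01 on all 8 arrays, the processed table, a replicate block, a clock covariate, and leaving out each array. A chip block was not run, because no chip is named. Promoters were RefSeq's (GRCm38.p6). The array files state no genome build, so gene coordinates were left out.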

Additional observations from a re-analysis of the deposited data

Results flagged for a closer look

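Among 54 sets of 4 arrays, 1 set per named probe and genotype, 3 had a lone array well away from its group. Chance alone gives about 1 in 20 such sets. Wild-type replicate 3 had a log2 signal of 5.79 for Fkbp5, against 6.17 to 6.22 on the other wild-type arrays. Heterozygous replicate 3 had 11.79 for Serpina6, against 11.48 to 11.53. Wild-type replicate 1 had 12.91 for Cyp3a11, against 12.32 to 12.40.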

How the results depend on the processing

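Over 16 alternatives, 0 member probes passed the threshold, and the same count of 0 held for the receptor partner, ligand handling and amino acid breakdown lists; 0 correlated pairs passed under 17 alternatives. Among the other glucocorticoid-induced genes the count ranged from 0 to 1 with an array left out, the 1 being Dusp1 without heterozygous replicate 1. The log2 fold change of Fkbp5 was -0.025 without heterozygous replicate 2 and ranged up to 0.34 with an array left out. Those of Hsd11b1 (-0.14 to -0.09), Tsc22d3 (0.17 to 0.35), Sgk1 (0.02 to 0.28) and Tdo2 (0.02 to 0.25) kept their sign under all 16. Without background correction, 4 member probes, 3 of them the repeated Hsd11b1 probes, had an unadjusted p under 0.05, against 11.7% of all probes in that fit, and the lowest limma adjusted p was 0.314. That count was 2 with offset 50 (11.5% of all probes) and 2 without heterozygous replicate 4 (8.61%). It was 1 without heterozygous replicate 1 (12.7%), 4 of 11 with no detection filter (8.2%), and 0 under the remaining alternatives. Replicate numbers are shared between genotypes, and whether they pair the mice could not be told from the values. Same-numbered arrays had deviations correlated at -0.07, 0.13, 0.10 and 0.08, against -0.14 to 0.16 for arrays of different numbers. The fit with the replicate block called 0 member probes, with 0 called probes in all where 1 was called without it. Over all tested probes 0 to 7 passed the threshold across the alternatives, against 1 in the reported fit, with 7 without heterozygous replicate 1. Only 4 mice per genotype and the dim signals of Nr3c1, Tat and Fkbp5 limit the precision.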
